A study of Mus musculus with 4 samples.

Results

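Pcbp1 chromatin immunoprecipitation sequencing (ChIP-seq) peaks were examined around 6 genes, Nes, Dlx5, Dlx6, Sox1, Pax6 and Foxe3, of 21887 protein-coding genes in the annotation. They were grouped as neural lineage genes, though Foxe3 is a factor of the lens. A peak was assigned to a gene when its summit lay within 50 kb of the gene body in the mouse build mm10. The set was chosen by its EpiLC peaks, so the counts and folds of these peaks are a description and no test was made on them. By this rule 8 of 3494 EpiLC peaks and 2 of 12132 Naive peaks belonged to the set. Pax6 did not match the label under which the genes were grouped, since neither list held a peak within 50 kb of it.

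Pcbp1 belongs to the poly-C-binding proteins, which recognise C-rich stretches of RNA and DNA. The naive cells were E14 Tg2a mouse embryonic stem cells kept for 3 passages in serum-free N2B27 medium with LIF, the MEK inhibitor PD0325901 (1 uM) and the GSK3 inhibitor CHIR99021 (3 uM). Primed epiblast-like cells (EpiLC) were made from them on fibronectin in N2B27 with bFGF (12 ng/ml), Activin A (20 ng/ml) and 1% KOSR for 48 hours. Each state had 1 Pcbp1 ChIP library (antibody Abcam ab74793) and 1 input library, all from a single cell line, so no value below carries an error between cultures. The deposited lists give no profile of the input libraries.

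Nestin, encoded by Nes, is an intermediate filament protein of neural progenitors. Sox1 is an HMG-box factor whose onset marks the neural plate, and Pax6 is a paired homeodomain factor of the eye and forebrain. Dlx5 and Dlx6 are neighbouring distal-less homeobox genes of the ventral forebrain, branchial arches and limb buds, known to be transcribed towards each other across a stretch that holds forebrain enhancers. Foxe3 is a forkhead factor of the lens. EpiLC resemble the epiblast before germ layers form, and such genes are as a rule silent or low in it.

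Windows at the annotated starts were compared with the summit positions of the peaks. RefSeq windows (GRCm38.p6, 250 bases before to 50 after a start) were given for 4 of the 6 genes, and 3 are printed 5′ to 3′ with runs of at least 4 C or at least 4 G in capitals, the kind of sequence a poly-C-binding protein is known for. The Nes window (chr3:87970843-87971142, plus strand) held the summit of a peak in both lists. The Foxe3 window (chr4:114926018-114926317, minus strand) and the Sox1 window (chr8:12395269-12395568, plus strand) held none and are shown for contrast.
Nes: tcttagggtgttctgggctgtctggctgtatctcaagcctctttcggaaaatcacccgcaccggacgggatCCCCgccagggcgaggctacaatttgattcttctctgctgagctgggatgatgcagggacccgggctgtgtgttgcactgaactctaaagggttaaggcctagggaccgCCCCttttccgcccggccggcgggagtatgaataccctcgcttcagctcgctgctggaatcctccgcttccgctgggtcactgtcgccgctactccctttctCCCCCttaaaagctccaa
Foxe3: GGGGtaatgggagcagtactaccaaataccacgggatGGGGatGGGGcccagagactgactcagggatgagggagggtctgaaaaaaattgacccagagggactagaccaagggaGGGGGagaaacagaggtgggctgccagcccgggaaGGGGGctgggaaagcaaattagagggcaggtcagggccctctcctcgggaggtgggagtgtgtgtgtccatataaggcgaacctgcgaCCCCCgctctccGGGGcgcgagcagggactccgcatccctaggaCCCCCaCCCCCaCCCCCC
Sox1: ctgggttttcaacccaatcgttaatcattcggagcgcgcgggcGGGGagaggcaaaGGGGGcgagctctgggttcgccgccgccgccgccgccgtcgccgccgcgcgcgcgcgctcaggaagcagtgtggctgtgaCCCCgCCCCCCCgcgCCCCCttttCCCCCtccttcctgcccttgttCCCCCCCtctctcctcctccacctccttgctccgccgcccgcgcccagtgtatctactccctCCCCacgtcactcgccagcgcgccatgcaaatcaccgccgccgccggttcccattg

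Nes had 3 such runs, Sox1 had 8 and Foxe3 had 10. The 2 windows given for Pax6 had 2 each, and neither held a summit or the letters searched below. At least 1 such run was present in 88.2% of 21263 protein-coding windows, at least 8 in 12.9% and at least 10 in 5.38%. The letters CCCTCCC, searched on both strands, occurred once in the Sox1 window (from base 241, counted from 1 at the 5′ end) and in 2 places in the Foxe3 window (from bases 71 and 112, as the reverse complement), and were absent from the Nes window. Of all windows 24.9% held them, against 29.4% of the 303 windows with an EpiLC summit and 22.7% of the 1226 with a Naive summit. The GC content was 58.7% in the Nes window, 63.0% in Foxe3 and 70.7% in Sox1, with a median of 56.3% over all windows.

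**Figure D1:**
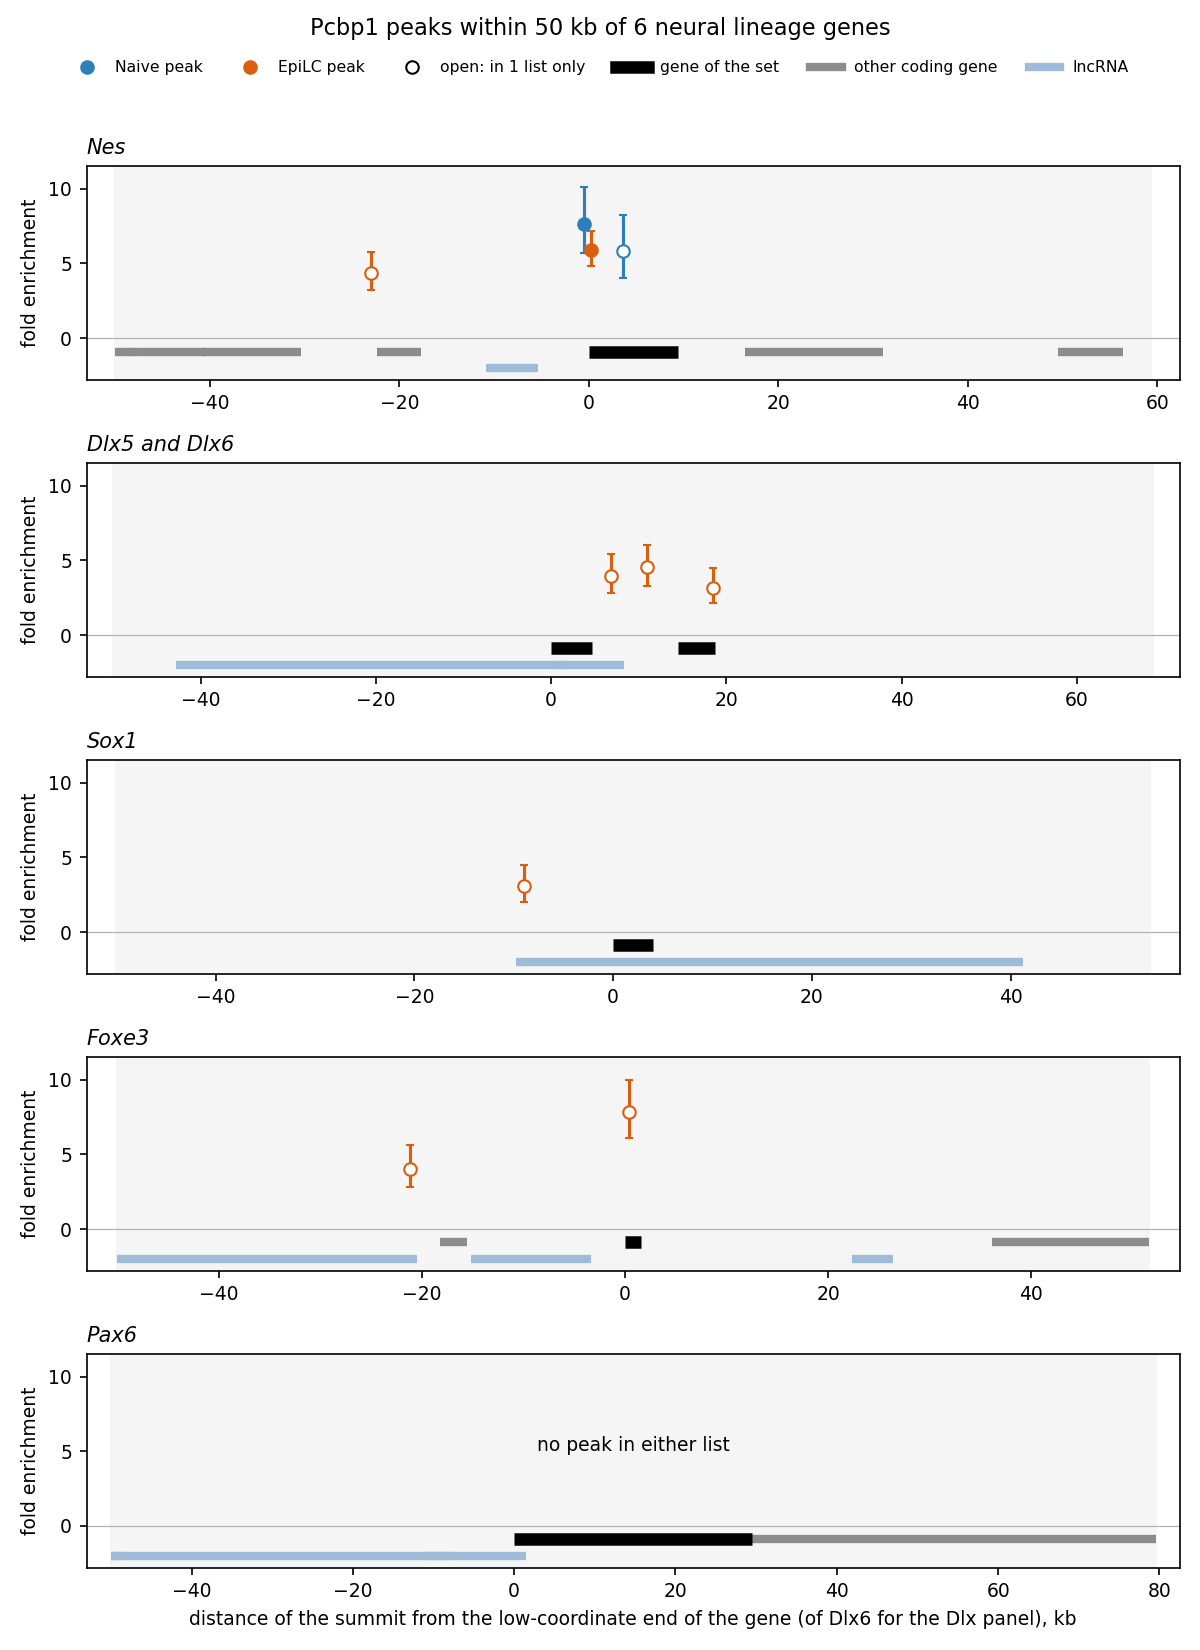
Peaks around the 6 genes. Each point is a peak at its summit (x axis, kb from the low-coordinate end of the gene; y axis, fold enrichment with its 95% counting interval), blue for Naive and orange for EpiLC, filled when the peak overlapped one of the other list; bars under the line are genes. The 2 overlapping peaks at Nes are drawn slightly apart. Blue points occur at Nes alone, and the Pax6 panel is empty.

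Nes was the only member with peaks in both lists. At its start the Naive peak (chromosome 3, 87970790 to 87971319) had a fold enrichment of 7.66 (95% Poisson counting interval 5.71 to 10.1) and the EpiLC peak (87970667 to 87971205) one of 5.92 (4.85 to 7.14). Fold enrichment is the authors' ratio of the pileup at the summit to the background of the peak caller. The intervals overlapped, and a difference between the 2 folds was not tested. Counting error leaves out any difference between cultures.

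The summits at Nes lay 125 bp (Naive) and 129 bp (EpiLC) upstream of the annotated start, which is 4 bp apart. Over all 1689 EpiLC peaks that overlapped a Naive peak, the median distance between summits was 48 bp (quartiles 18 and 123), and 7.10% of pairs lay as close as those at Nes. A summit of both lists fell within 0.908% of protein-coding start windows, an EpiLC summit within 1.43% and a Naive summit within 5.77%. The EpiLC to Naive ratio of folds was 0.772 at Nes, with a median of 0.670 over all pairs.

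**Figure D2:**
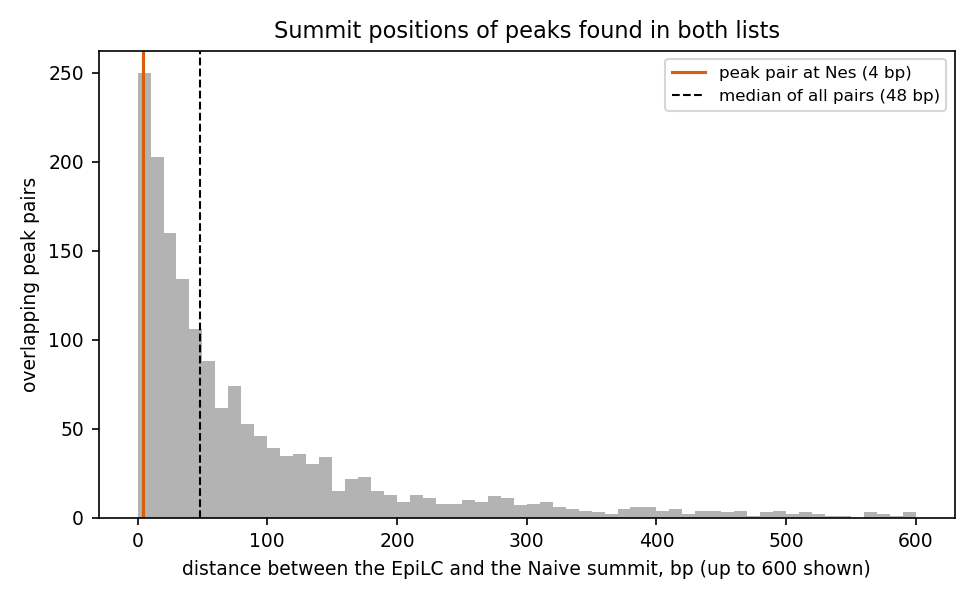
Distance between the EpiLC and the Naive summit for overlapping peaks (x axis, bp, shown up to 600; y axis, number of pairs). The pair at Nes, at 4 bp, lies in the bin nearest 0, and the median of all pairs is 48 bp.

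The order of the 2 values at Nes depended on the background used. The pileup at the summit was 49 reads in Naive and 106 in EpiLC, while the caller's background there was 5.52 and 17.1. In EpiLC that background was 2.30 times the lowest in the list, against 1.38 times in Naive. Divided by the lowest background of its own list, the Nes pileup came to 12.2 in Naive and 14.3 in EpiLC, so EpiLC was the higher on this scale and the lower by the authors' fold.

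Nes also had 1 peak in each list alone, that is, without an overlap of even 1 bp with a peak of the other list. The Naive-only peak (87974458 to 87974875) lay inside the gene, 3641 bp downstream of the start, with a fold of 5.82 (3.99 to 8.23). The EpiLC-only peak (87948003 to 87948242) was 23012 bp from Nes at a fold of 4.37 (3.24 to 5.78). That peak was far nearer another gene, 612 bp outside the low-coordinate end of Crabp2, which encodes a cellular retinoic acid-binding protein. A summit assigned to Nes by the 50 kb rule was therefore closest to Crabp2.

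Dlx5 and Dlx6 shared 3 EpiLC-only peaks and had no Naive peak, the nearest Naive summit being 144.7 kb from Dlx5 and 158.8 kb from Dlx6. The peaks lay on chromosome 6 at 6870021 to 6870267 (fold 3.98, 2.83 to 5.45), 6874232 to 6874496 (4.52, 3.30 to 6.05) and 6881511 to 6881954 (3.14, 2.14 to 4.47). Their intervals overlapped one another, and no order of the 3 was tested or is read from them. The members share these peaks and are not independent.

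The first and second Dlx summits lay in the 9830 bp between the bodies of the genes, 2214 bp from Dlx6 and 3493 bp from Dlx5. The first was also inside Dlx6os1, a long non-coding RNA (lncRNA) gene on the minus strand that overlaps Dlx6, and 651 bp upstream of 1 of its annotated starts. The third lay inside Dlx5, 286 bp from the end where transcription of the gene is known to begin. All 3 summits lay within 11598 bp.

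Foxe3 held the EpiLC peak with the highest fold of the set (chromosome 4, 114924621 to 114925068), at 7.83 (6.07 to 9.94). Its interval overlapped that of the EpiLC peak at the Nes start, which had the larger pileup (106 against 65 reads) and the higher −log10 q (42.4 against 33.5). Its fold was above 97.7% of EpiLC peaks, where the quartiles were 2.87 and 4.15. As the highest fold of a set chosen by its EpiLC peaks, this rank is a description only. No Naive peak lay within 50 kb. Foxe3 is on the minus strand, and the summit was 1181 bp downstream of its start and 443 bp from the opposite end of the gene, so the peak lay nearer the far end of the gene than its start. The nearest Naive summit was 632 kb away. At 4.95% of protein-coding genes the nearest Naive summit was as far, and the median was 30.7 kb.

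A second EpiLC-only peak (114903182 to 114903446), with a fold of 4.03 (2.81 to 5.61), lay 21123 bp from Foxe3. Its nearest protein-coding gene was Foxd2, another forkhead gene, at 2960 bp. The summit was inside the lncRNA gene Gm33655, 626 bp downstream of its start.

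Sox1 had a single EpiLC-only peak (chromosome 8, 12386453 to 12386671), at a fold of 3.08 (2.04 to 4.50), and no Naive peak within 50 kb. Its summit was 8962 bp upstream of the Sox1 start and 786 bp downstream of the start of Sox1ot, an lncRNA gene that overlaps Sox1 on the same strand. Of the 10 peaks it had the lowest fold, −log10 q (3.61) and pileup (25 reads), and at 219 bp no EpiLC peak was narrower. A Naive summit lay just beyond the limit, at 55.97 kb with a fold of 3.68.

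Pax6 (chromosome 2, 105668896 to 105698410) had no peak of either list within 50 kb. The nearest Naive summit was 206 kb away (fold 3.08) and the nearest EpiLC summit 853 kb away (fold 2.43). Of all protein-coding genes 37.9% had no peak within 50 kb in either list, and at 13.7% the nearest EpiLC summit was at least as far as at Pax6. A missing peak says only that no signal passed the caller's threshold in that library.

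Just outside the limit of 50 kb, the nearest Naive summit to Nes was at 51.3 kb (fold 3.94). The nearest outside EpiLC summits lay farther off, at 81.0 kb from Nes (3.71), 102.7 kb from Sox1 (3.89) and 131 kb from Foxe3 (2.58). For Dlx5 the nearest was at 144.7 kb (2.22). Those for Sox1 and Dlx5 lay in peaks that overlapped a Naive peak. The farthest EpiLC summits inside the limit were the ones near Crabp2 and Foxd2 given above.

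The counts were then read against all genes. Within 50 kb the set held 8 EpiLC and 2 Naive peaks, but within 100 kb it held 9 and 8, and at a fold of at least 5 it held 2 of each. At least 1 EpiLC peak lay within 50 kb of 5 of 6 members and of 26.3% of protein-coding genes. An EpiLC-only peak lay near 5 of 6 members and 13.0% of genes, and a Naive peak near 1 of 6 and 58.1%. For Naive-only peaks the counts were 1 of 6 and 54.0%, and for EpiLC peaks that overlapped a Naive peak 1 of 6 and 16.7%. An EpiLC peak with no Naive peak in the window was found at 4 of 6 members and 3.91% of genes. Dlx5, Dlx6 and Foxe3 had at least 2 EpiLC peaks and no Naive peak, as 0.736% of genes did. At least 3 EpiLC peaks lay near 2.49% of genes and at least 3 EpiLC-only peaks near 0.690%, Dlx5 and Dlx6 among them. Nothing is read from these shares, because the same peaks selected the members.

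Within 1 kb of a gene end the counts were smaller. Nes, Dlx5 and Foxe3 had an EpiLC summit there, against 5.61% of genes, Dlx5 and Foxe3 had an EpiLC-only summit (1.78%), and Nes had a Naive summit (19.3%). Gene length, which widens the window, ranged from 1625 bp (Foxe3) to 29515 bp (Pax6). The share of genes with an EpiLC-only peak within 50 kb ranged from 10.5% in the shortest of 5 equal groups of genes, which holds Sox1 and Foxe3, to 14.9% in the longest.

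Of the 8 EpiLC peaks near the set 1 overlapped a Naive peak, that at the Nes start, while 48.3% of all EpiLC peaks did. Of the 2 Naive peaks 1 overlapped an EpiLC peak, and 13.7% of all Naive peaks did.

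**Figure D3:**
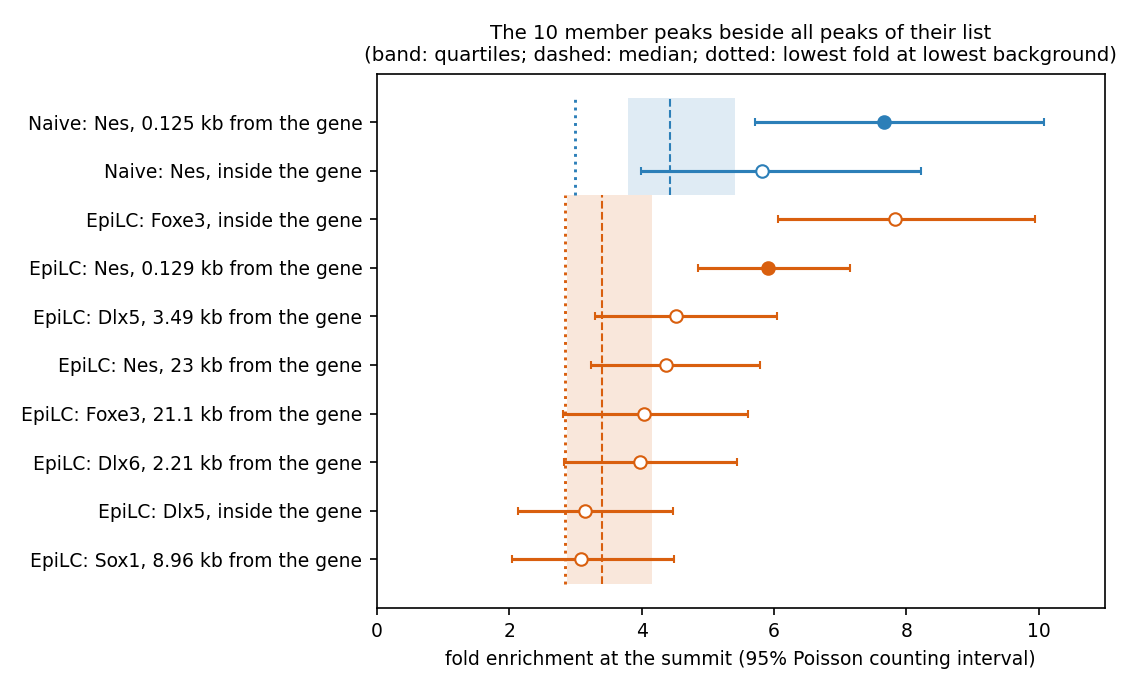
Fold enrichment of the 10 member peaks (points with 95% counting intervals; filled when found in both lists) beside all peaks of their list (band, quartiles; dashed line, median; dotted line, lowest fold among peaks at the lowest background). The Foxe3 gene-body peak at 7.83 is the highest of the EpiLC points, and the Sox1 peak at 3.08 is the lowest.

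The folds of the EpiLC-only peaks were set beside those of Naive peaks at a like background. The genome-wide background, taken as the lowest in a list, was 4.004 reads in Naive and 7.43 in EpiLC, a ratio of 1.86. Among the 5924 Naive peaks at a relative background within 10% of that at Sox1, the lowest fold was 2.99, and 0.0844% had a fold at or below the 3.08 of the Sox1 peak. For the peak inside Dlx5, at 3.14, the share of comparable Naive peaks was 1.50%. Both folds were therefore close to the lowest that Naive peaks had at a like background (2.99 and 2.82), though not under it. For the other EpiLC-only peaks the share of comparable Naive peaks at or below their fold was 21.6% near Foxd2, 26.9% and 50.7% at the first and second Dlx peak, 58.7% near Crabp2 and 91.1% in Foxe3. These are shares of peaks that passed the threshold and give no rate of detection. In the other direction, 89.7% of comparable EpiLC peaks had a fold at or below that of the Naive-only peak inside Nes.

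Several EpiLC peaks of the set lay close to the start of an lncRNA gene, a feature the rule did not use. This held within 1 kb for 3 of the 8, those at Dlx6os1, Gm33655 and Sox1ot, none of which had a protein-coding start in that range. With a protein-coding start in that range excluded in the same way, the shares were 3.35% of all EpiLC peaks and 3.32% of the EpiLC-only peaks. Without that exclusion they were 5.92% and 4.93%. With 8 peaks at 4 loci and no replicate library, no test was made, and the feature was looked for after the positions were seen. Among the protein-coding RefSeq windows, which do not cover Dlx5, Dlx6 or Crabp2, only the start of Nes lay within 1 kb of a member peak. The third Dlx peak, 286 bp from the end where Dlx5 transcription is known to begin, was therefore not counted. Nor was the peak 612 bp from the low-coordinate end of Crabp2. Of all EpiLC peaks 26.8% had a protein-coding start within 1 kb in these windows, and with genes missing the shares are not compared.

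Other genes were counted in 6 lists of 90 genes, called the neural lists here, all found in the annotation. These lists hold lens and placode genes and neural crest genes beside genes of the neural plate and of neurons. Without the 6 members, 40 of 84 genes had an EpiLC peak within 50 kb (47.6%, against 26.3% of all protein-coding genes), 32 had an EpiLC-only peak (38.1%, against 13.0%) and 42 had a Naive peak (against 58.1%). An EpiLC peak with no Naive peak was found at 19 of 84 (22.6%, against 3.91%). The median number of EpiLC peaks per gene was 0 in these 84 and 0 in all genes, and the mean was 0.833 and 0.393. Some of these genes had been picked out in earlier work on the same files, and Dlx1 and Dlx2 were added after their values were seen. Neighbouring genes, such as Dlx3 and Dlx4, can count the same peak more than once. The shares carry no test.

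All 6 genes of the Dlx family, which form 3 neighbouring pairs, had an EpiLC-only peak within 50 kb and none had a Naive peak. Of all protein-coding genes 13.0% had an EpiLC-only peak and 58.1% a Naive peak. Dlx5 and Dlx6 are members chosen by their EpiLC peaks, so their part of this count was fixed in advance. Dlx3 and Dlx4 shared 1 peak at a fold of 4.40 (3.42 to 5.58). Dlx1 and Dlx2, added here to complete the family after their values were seen, shared 2, at 2.56 (1.83 to 3.49) and 3.03 (2.08 to 4.28). The 6 genes thus rest on 6 peaks at 3 loci, and nothing about the family is read from the count.

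Among 39 factors of the neural plate and neural progenitors, Nes, Sox1 and Pax6 included, 22 had an EpiLC peak and 20 a Naive peak. The highest EpiLC folds were at Sox2, a factor shared by pluripotent and neural cells (7.16, 5.80 to 8.75), Pax2, of the mid-hindbrain and kidney (5.98, 4.55 to 7.74), Nes, and Pax7, of the dorsal neural tube (4.82, 3.53 to 6.43). The highest Sox2 peak overlapped a Naive peak of 8.37 (6.06 to 11.3) and lay 39655 bp from the gene. Pax2 had 6 EpiLC-only peaks and Pax7 had 5, with no Naive peak at either. Both genes have longer windows than the members.

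Lens and placode genes had EpiLC peaks at 5 of 12 and Naive peaks at 7 of 12. After Foxe3 came Maf, a lens bZIP factor (5.57, 4.34 to 7.04), with no Naive peak, then Six4 (3.96) and Cryaa, a crystallin gene (2.98), both with Naive peaks in the window. Neural crest genes had 5 of 10 in each list. Ets1 reached 5.80 (4.37 to 7.55) with no Naive peak, Tfap2a 5.69 (4.21 to 7.53) with 6 EpiLC-only and 2 Naive-only peaks, and Twist1 3.20 with no Naive peak. Foxd3 had 1 EpiLC peak, at 4.26, which overlapped a Naive peak, and 4 Naive peaks with a highest fold of 13.95.

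Proneural genes and genes of mature neurons were nearer the background. Of 11 proneural and early neuron factors 3 had an EpiLC peak, Atoh1 (5.33), Tlx3 (4.27) and Neurod2 (2.89), and each had a Naive peak in its window too. Of 12 genes of neurons and glia 4 had one, Elavl4 (3.77), Gap43 (3.60), Syp (3.39) and Rbfox3 (3.36), and 7 had a Naive peak. For comparison, 4 of 14 mesoderm genes had an EpiLC peak (Tbx6, Hand1, Foxf1 and Mesp1, the highest at 6.89) and 1 of 14 endoderm genes did (Gata6, 2.67). Differences between lists of this size were not tested.

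**Figure D4:**
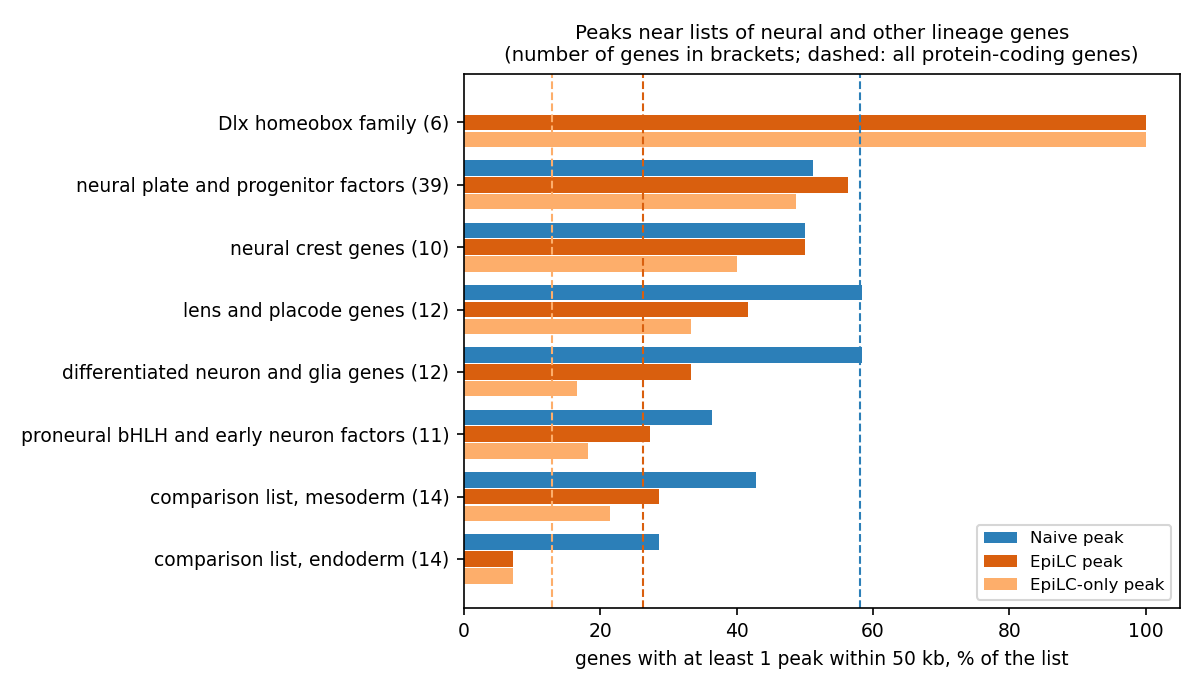
Share of genes in each list with at least 1 peak within 50 kb (x axis, percent; bars for Naive, EpiLC and EpiLC-only peaks; dashed lines, all protein-coding genes at 58.1%, 26.3% and 13.0%). The EpiLC bar lies above its line in 7 of the 8 lists shown, with mesoderm (28.6%) and the proneural factors (27.3%) close to it and endoderm (7.14%) below it; the Dlx, neural plate and lens lists include members. No Naive bar appears at the Dlx family.

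Genes of the neural lists with the same pair of Naive and EpiLC peak counts were looked up for each member. Dlx5 and Dlx6 (0 Naive, 3 EpiLC) were matched by Six3, a forebrain and eye factor, and Lhx5, a LIM homeodomain factor. Each had 25 matching genes in all, the other gene of the pair included. Foxe3 (0 and 2) was matched by Zic1, Dbx1 and Lhx2 as those with the highest EpiLC folds, among 113 genes. Sox1 (0 and 1) shared its counts with 694 genes, of which Ets1, Maf and Dlx3 had the highest folds in the lists. Nes (2 and 2) was matched in the lists by Syp alone, a synaptic vesicle gene, and by 223 genes in all. With 2 libraries such a match is coarse.

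Pluripotency markers were counted beside the labels. All 12 naive markers had a Naive peak within 50 kb (58.1% of all protein-coding genes did), and 3 had an EpiLC peak (25%, against 26.3%). Of 11 primed markers 9 had an EpiLC peak (81.8%, against 26.3%) and 7 a Naive peak (63.6%, against 58.1%). The lists were chosen with earlier results of these data known, so the counts are no independent check of the labels. Peak lists hold no expression, so whether any of the 6 genes was transcribed in either state could not be read from them.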

How the data were processed

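Pcbp1 ChIP-seq was deposited as 1 peak list per state, each from 1 ChIP library; 2 input libraries have no file used here. Per the submitters' processing notes the tools were MACS2, Picard, Bowtie2 and fastp, on build GRCm38 (mm10). Their versions and roles, and the control given to the caller, are not stated in these sources. The fold at each summit is a deposited ratio over the caller's background. The −log10 p and −log10 q are the authors' deposited values, with a lowest −log10 q of 2.02 in both lists.

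Pileup and background were solved from the fold, read as (pileup + 1) / (background + 1), and the Poisson p; a whole-number pileup matched within 0.001 for 100% of peaks. Intervals come from that pileup and cover counting error only. Read totals are not given. Peaks overlapping by at least 1 bp were shared. Gene bodies and start windows came from RefSeq tables of GRCm38.p6. Computations used scipy 1.17.1, pandas 2.3.3 and numpy 2.4.6 under Python 3.11.15, with matplotlib 3.10.9, and counting steps were checked on simulated data. The planned base composition of peaks was not run, since no genome was used. No test between states was possible with 1 library each.

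Members and lists were chosen with earlier results of these data known. Named genes were the members, genes nearest their peaks, up to 4 genes per list by EpiLC fold and up to 3 per member with equal peak counts.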

Additional observations from a re-analysis of the deposited data

How the results depend on the processing

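At a fold of at least 5, which 12.4% of all EpiLC peaks and 32.8% of all Naive peaks reached, 2 of the 8 EpiLC peaks, 1 of the 7 EpiLC-only peaks and both Naive peaks were left. At a −log10 q of at least 5, 6 EpiLC and 5 EpiLC-only peaks were left, and Sox1 had none. The third Dlx peak, with a −log10 q of 4.48 and a pileup of 29 reads, was lost too. Dlx5 and Dlx6 then had fewer than 3 EpiLC-only peaks. Within 100 kb the window held 9 EpiLC and 8 Naive peaks, 7 of them Naive-only, against 8, 2 and 1 within 50 kb. Shortening the Naive list to 3494 peaks, or asking for an overlap of 50% of the shorter peak, changed no count of peaks near the 6 genes. Within 1 kb of a gene end 3 members had an EpiLC peak and 2 an EpiLC-only peak.

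Counts over all genes moved with the window and the list length. Genes with an EpiLC peak numbered 5759 within 50 kb, 2965 within 10 kb and 1228 at gene ends. Those with a Naive peak numbered 12726, 8016 and 4230, and 5996 with the shortened Naive list. Those with an EpiLC-only peak numbered 2843, 1364 and 390, and 4269 with the shortened Naive list. Of the 90 genes of the neural lists, 45 had an EpiLC peak within 50 kb and 15 at gene ends. A Naive peak was near 43, and near 24 within 10 kb, 4 at gene ends and 19 with the shortened list. An EpiLC-only peak was near 37, and at gene ends of 13.

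Folds at Nes were sensitive to the background, as given above. No paired analysis was possible because each group had 1 library. Read depth is not given, so detection limits rest on the recovered pileups.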

Other observations

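Runs of EpiLC-only peaks as tight as the one at Dlx5 and Dlx6 were counted over all chromosomes. Places where 3 EpiLC-only peaks had summits within 11598 bp numbered 26 and held 100 of the 1805 EpiLC-only peaks (5.54%). At 15 of the 26, Dlx5 included, no Naive summit lay within 50 kb. Genes nearest to such places included Pax2, Pax7, Six3, Lhx5, Pou3f2, Uncx and Dlx5, which encode homeodomain or paired-box factors, and also Lef1, Nrn1, Ndst3, Flnc and Snrpn, which do not. Pax7 had 5 such peaks in 12974 bp and Pax2 had 4 in 14533 bp. These genes were named after their positions were seen, and the pattern was not tested.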
